A study of Homo sapiens with 8 samples.

Results

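Interferon response genes were followed in LX-2 cells, a human hepatic stellate cell (HSC) line that serves as a model of liver myofibroblasts. The set comprised 9 genes given by name, of 16796 genes in the count tables. It held the transcription factor genes STAT2, IRF9 and IRF1, and the effector genes ISG15, IFIT1, IFIT2, IFIT3, MX1 and OAS1. All 9 passed the filter of at least 10 counts over all libraries, which left 14895 genes. Control cells received the vehicle DMSO and OGTi cells received OSMI-1, a small molecule that inhibits O-GlcNAc transferase (OGT), at 50 µM for 24 h. Both groups grew in DMEM with 5% fetal bovine serum, and neither the labels nor the methods name an interferon given to the cells. Each group had 4 libraries from 4 biological replicates, and the control and OGTi libraries of the same number were treated as a pair. All libraries came from a single cell line, so the replicates do not cover variation between people.

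Type I interferons bind the receptor pair IFNAR1 and IFNAR2, which act through the kinases JAK1 and TYK2 to phosphorylate STAT2. STAT2 joins IRF9 in the complex ISGF3, which binds the interferon-stimulated response element (ISRE) upstream of effector genes. Interferon gamma acts mainly through the gamma-activated site (GAS) and is known to induce IRF1. STAT2, IRF9 and IRF1 are themselves induced by interferon, and stellate cells are among the liver cells that can mount this response.

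The promoters of the 9 genes were searched for 3 motifs on both strands, in the 250 bases before and 50 bases after each RefSeq start site. The ISRE was written as GAAANNGAAA, a related repeat with a single spacer base as GAAANGAAA, and the GAS as TTCNNNGAA. Promoter entries were matched for 8 of the 9 genes. Of 35116 RefSeq promoters of that length, 3.57% held the ISRE, 3.12% the single-spaced repeat and 7.66% the GAS. ISG15, IFIT1 and both starts of IFIT3 each held 2 ISRE matches. In the ISG15 window the 2 matches overlap, and they began 113 and 107 bases before the start, while those of IFIT1 began 116 and 103 bases before it. The promoters of IRF1 and IRF9 each held a GAS and no ISRE, and that of STAT2 held 0 matches to any of the 3 motifs. The stretches around these matches are shown so that the matches can be read in their context. They are from RefSeq on GRCh38.p14, 5′ to 3′ on the strand of the gene, with matches in capitals. ISRE matches on the opposite strand begin with TTTC.
IFIT1 (chr10:89392495-89392541, plus strand): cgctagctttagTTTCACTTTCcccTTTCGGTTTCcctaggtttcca
IFIT3 start 1 (chr10:89327829-89327896, plus strand): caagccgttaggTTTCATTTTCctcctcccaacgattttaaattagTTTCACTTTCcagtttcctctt
IFIT3 start 2 (chr10:89332423-89332504, plus strand): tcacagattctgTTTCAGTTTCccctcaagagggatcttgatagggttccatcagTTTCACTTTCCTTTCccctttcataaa
ISG15 (chr1:1013372-1013411, plus strand): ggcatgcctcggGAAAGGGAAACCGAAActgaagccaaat
IRF1 (chr5:132490877-132490909, minus strand): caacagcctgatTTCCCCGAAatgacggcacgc
IRF9 (chr14:24161190-24161222, plus strand): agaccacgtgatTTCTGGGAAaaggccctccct

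MX1 has 3 RefSeq starts, and OAS1 has 1. The start of MX1 labelled 1 here held an ISRE and an overlapping single-spaced repeat after the start, and a single-spaced repeat 19 bases before it. The start labelled 2 held 2 single-spaced repeats, which began 113 and 68 bases before it. The start labelled 3 held an ISRE that overlaps a GAS. OAS1 held a single-spaced repeat 17 bases before its start and a GAS 168 bases before it. In the second IFIT3 window above, the second ISRE match also overlaps a single-spaced repeat. A match describes the letters in a window, and binding was not measured here.
MX1 start 2 (chr21:41426114-41426191, plus strand): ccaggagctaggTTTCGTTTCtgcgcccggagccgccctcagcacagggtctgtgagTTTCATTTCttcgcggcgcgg
MX1 start 3 (chr21:41431842-41431881, plus strand): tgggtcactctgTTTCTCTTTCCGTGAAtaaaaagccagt
OAS1 (chr12:112906933-112906961, plus strand): ctcccttctgagGAAACGAAAccaacagc

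**Figure D1:**
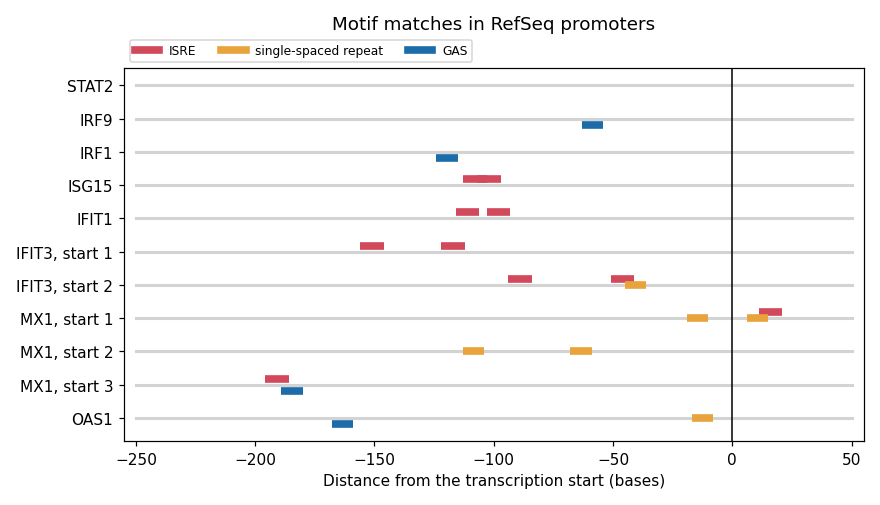
Positions of motif matches in the RefSeq promoters of 8 of the 9 genes, with distance from the transcription start in bases on the horizontal axis and 1 row per start site; coloured bars are matches and grey lines are the windows searched. ISG15, IFIT1 and IFIT3 each carry 2 ISRE matches per window, whereas IRF1 and IRF9 carry a GAS and STAT2 none of the 3 motifs.

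Under OGTi the transcript levels of STAT2, IRF1 and ISG15 rose, and those of the other 6 genes did not pass the test. In the blocked DESeq2 fit, 3 of the 9 genes were called higher, where a call is a Benjamini-Hochberg adjusted p (q) of 0.05 or lower. None of the 9 was called lower, and the count of lower genes was also 0 at an unadjusted p under 0.05 in DESeq2 and 0 calls in edgeR. Of all 14028 genes with a q, 46.6% were called, 22.7% higher and 24.0% lower, so a count of 3 of 9 is not read as a result on the set as a whole. The median log2 fold change of the 9 genes was 0.02, against 0.00451 for all tested genes. This median is the value of OAS1, which had the widest interval of the 9. Leaving out replicate 2 (both libraries of the pair) raised that median to 0.50 and the number called to 4, with IFIT3 as the added gene, where 17.6% of all genes with a q were called higher. Replicate 2 was singled out after the values had been seen, so this rise is a description. Leaving out replicate 1, 3 or 4 gave medians of 0.09, -0.12 and -0.14, with 3 calls each.

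STAT2, the transactivating subunit of ISGF3, lies at chr12:56341597-56360203 on the minus strand. Its normalized counts (counts divided by the size factor of the library) were 1733, 2109.9, 1474 and 1541 in control replicates 1 to 4. They were 2145, 2606, 2701 and 2672 in OGTi replicates 1 to 4. Every OGTi library lay above every control library, although OGTi replicate 1 was only just above control replicate 2. The mean was 1715 ± 285 in controls and 2531 ± 260.5 in OGTi cells (SD, n = 4). STAT2 rose 1.48-fold (95% interval 1.28 to 1.71), with a log2 fold change of 0.57 ± 0.11 (SE) and a q of 4.80e-07 in DESeq2. The rise within a pair was smaller in replicates 1 and 2 (0.31 and 0.30 on the log2 scale) than in replicates 3 and 4 (0.87 and 0.79).

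IRF9, the DNA-binding subunit of the same complex, lies at chr14:24161234-24168043. Its normalized counts were 849.5, 885, 517 and 528 in controls 1 to 4 and 628, 556, 621 and 592 in OGTi cells. Controls 1 and 2 were above all OGTi libraries and controls 3 and 4 were below them, so the groups overlapped. IRF9 did not pass the test (log2 fold change -0.17 ± 0.15, q = 0.353 in DESeq2), and its 95% interval ran from -0.46 to 0.12.

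IRF1, an early transcription factor of the interferon response that binds ISRE-like sites, lies at chr5:132440440-132508719 on the minus strand. Controls 1 to 4 had 643, 601, 399.9 and 475 normalized counts. OGTi libraries 1 to 4 had 1105, 970.3, 836 and 762. The groups did not overlap, and OGTi was higher in 4 of 4 pairs, by 0.68 to 1.06 on the log2 scale. IRF1 rose 1.74-fold (95% interval 1.501 to 2.02), with a log2 fold change of 0.80 ± 0.11 and a q of 3.97e-12 in DESeq2. Higher values without overlap were found for 18.8% of all 14895 genes, and for STAT2 and IRF1 among the 9, whereas lower values without overlap were found for 19.2% of genes and 0 of the 9.

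ISG15, a ubiquitin-like protein that is conjugated to other proteins, lies at chr1:1001138-1014540. Its normalized counts were 295, 336, 145 and 177 in controls and 442, 431, 346 and 298 in OGTi libraries 1 to 4. OGTi was higher in 4 of 4 pairs, but OGTi replicate 4 lay below control replicate 2, so the groups overlapped. ISG15 rose 1.65-fold (95% interval 1.32 to 2.07), with a log2 fold change of 0.72 ± 0.17 and a q of 5.34e-05 in DESeq2. The call was lost in unblocked fits without control replicate 3 (0.49, q = 0.0541) or without control replicate 4 (0.55, q = 0.0637). Those controls had the lowest ISG15 counts.

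**Figure D2:**
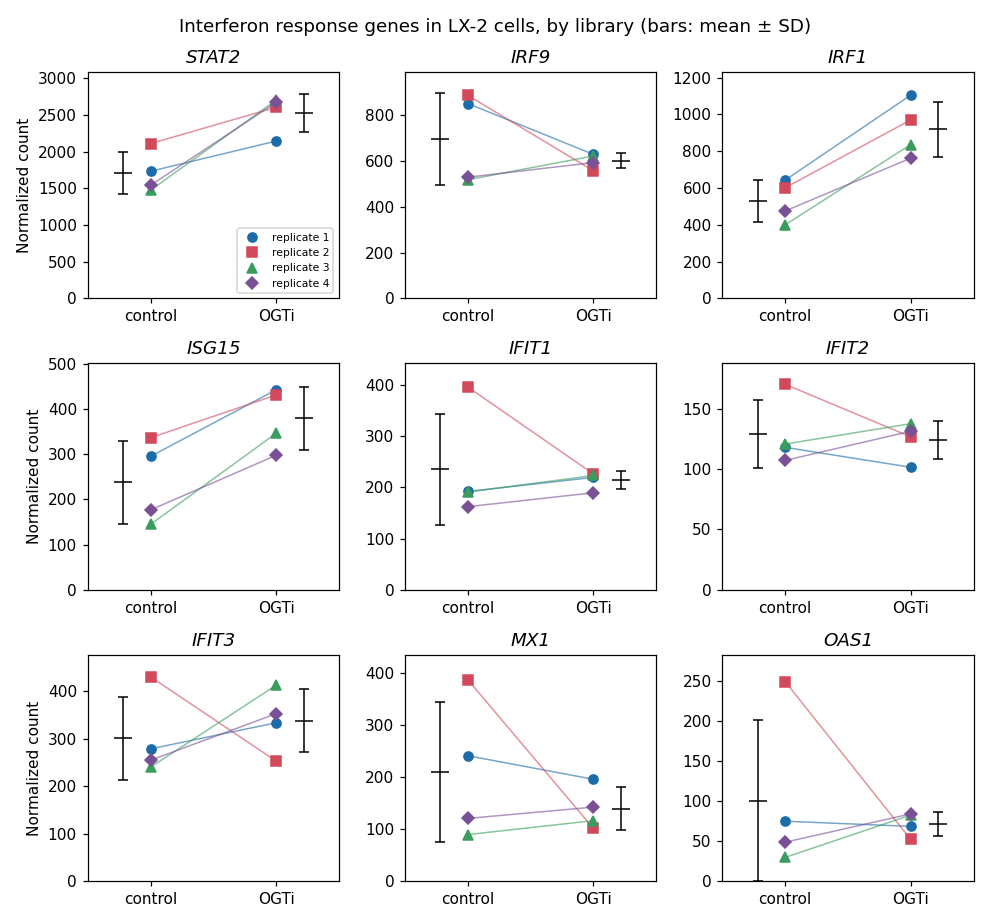
Normalized counts (vertical axes, from 0) of the 9 interferon response genes in control and OGTi libraries, with a colour and shape for each replicate, lines joining pairs, and bars for mean ± SD of 4 libraries. The pairs of STAT2, IRF1 and ISG15 all slope upwards, whereas control replicate 2 stands above all other libraries for IRF9, the 3 IFIT genes, MX1 and OAS1.

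The 3 IFIT genes, whose products bind viral RNA or partner with each other, lie near each other on chromosome 10. IFIT2 spans chr10:89283694-89309271, IFIT3 spans chr10:89327307-89377473 and IFIT1 spans chr10:89392546-89406487, all on the plus strand. IFIT1 had 192, 395, 191 and 162 normalized counts in controls and 219, 226, 223 and 189 in OGTi libraries. Control replicate 2 stood above all others, and in the other 3 pairs OGTi was slightly higher. IFIT1 did not pass the test (log2 fold change -0.05 ± 0.20, q = 0.873 in DESeq2), with a 95% interval from -0.44 to 0.34.

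IFIT3 had 279, 430.2, 240.2 and 255 normalized counts in controls and 334, 253, 412 and 353 in OGTi libraries. Again the highest control was replicate 2, and it was the only pair of the 4 in which OGTi was lower. With all libraries the log2 fold change was 0.19 ± 0.20 (q = 0.473 in DESeq2). Without replicate 2 it was 0.50 ± 0.19 with a q of 0.0245, and in an unblocked fit without control replicate 2 alone it was 0.39 with a q of 0.0708. Without replicate 3 it was -0.015 with a q of 0.970 in DESeq2.

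IFIT2 had the lowest counts of the 3, at 118, 170.0, 121 and 107 in controls and 101, 127, 137 and 131 in OGTi libraries. The groups overlapped, with control replicate 2 highest and OGTi replicate 1 lowest. IFIT2 did not pass the test (-0.04 ± 0.22, q = 0.894 in DESeq2), and its 95% interval ran from -0.47 to 0.39.

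MX1, a dynamin-like GTPase that blocks viral replication, lies at chr21:41420020-41470071. Its normalized counts were 241, 386, 89.6 and 121 in controls and 196, 101, 116 and 142 in OGTi libraries. The controls spread over a 4.31-fold range that enclosed all OGTi libraries. MX1 did not pass the test (log2 fold change -0.38 ± 0.50, q = 0.560 in DESeq2). The log2 fold change was 0.09 without replicate 2 (both libraries of the pair) and -0.12 in an unblocked fit without control replicate 2 alone. In an unblocked fit without control replicate 3, its lowest library, it was -0.85 and passed the test (q = 0.0234).

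OAS1, which makes the oligoadenylates that activate RNase L, lies at chr12:112905856-112933219. It had 75.0, 249, 29.9 and 48.9 normalized counts in controls and 68.5, 52.2, 82.7 and 84.1 in OGTi libraries. The controls differed by 8.33-fold between the highest and the lowest, and the OGTi libraries by 1.61-fold. The log2 fold change was 0.02 ± 0.71 (q = 0.989 in DESeq2), with a 95% interval from -1.38 to 1.42, so changes of more than 2-fold in either direction lie within it. It was 0.69 without replicate 2 (q = 0.178) and -0.51 without replicate 3 (q = 0.663).

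**Figure D3:**
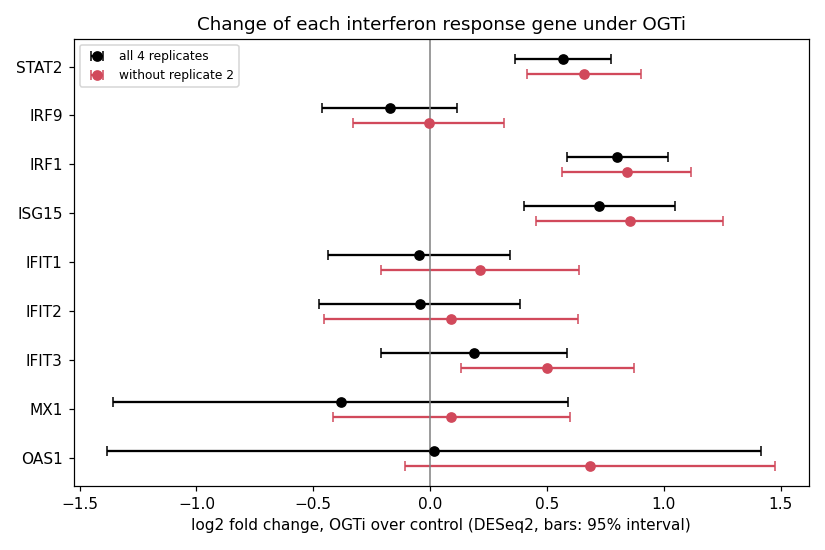
Log2 fold change of each gene, OGTi over control, from DESeq2 with the replicate block (horizontal axis), with 95% intervals as bars, for all 4 replicates (black) and without replicate 2 (red). The intervals of STAT2, IRF1 and ISG15 lie above 0 in both fits and that of IFIT3 does so only without replicate 2, whereas the intervals of OAS1 and MX1 with all replicates are the widest of the 9. Replicate 2 was singled out after the values had been seen.

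The 9 genes varied together within the control group. Control replicate 2 was the highest control for 8 of the 9 genes (IRF1 was the exception) and lay above all 7 other libraries for 6 of them. Over all tested genes these shares were 21.2% and 8.85%. This library was singled out after the values had been seen, so the shares are a description. Relative to the mean of the other controls, control replicate 2 held 4.86 times as much OAS1, 2.57 times as much MX1 and 2.18 times as much IFIT1. The excess was smaller for IFIT3 (1.67), ISG15 (1.64), IFIT2 (1.48), IRF9 (1.40), STAT2 (1.33) and IRF1 (1.19). For each of the 9 genes the excess was smaller or absent in the OGTi partner of this library. Relative to the mean of the other OGTi libraries, OGTi replicate 2 was lower for OAS1 (0.666), MX1 (0.670), IFIT3 (0.691) and IRF9 (0.907). It was higher for ISG15, IRF1, IFIT1, STAT2 and IFIT2, with ratios from 1.03 (IFIT2) to 1.19 (ISG15).

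Control replicate 2 was also high for genes of the response outside the set. It was above all 7 other libraries for 15 of 55 tested genes of a wider type I interferon list (27.3%). MX2 and OAS2, the closest relatives of MX1 and OAS1, chosen after their values were seen, were 4.96 and 4.49 times the mean of the other controls. ACTA2, a myofibroblast marker picked after its values were seen, was low in that library at 254 normalized counts, against 878, 920.5 and 818 in the other controls. Of the other stellate and myofibroblast markers tested, COL1A2, COL3A1, PDGFRB and TIMP1 lay there within the range of the other controls. COL1A1, VIM and the barely detected DES and LRAT were lowest there. ACTA2 was also lowest in OGTi replicate 2, at 121 normalized counts against 213 to 234 in the other OGTi libraries. Whether the state of that culture bears on the interferon response genes was not tested.

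All 9 genes had a larger coefficient of variation (SD over mean) in controls than in OGTi cells, with medians of 29.1% and 16.5%. Among the 11702 genes whose mean normalized count reached 50, the larger value was in controls for 48.6%, with medians of 9.64% and 9.83%. In the wider type I list the larger value was in controls for 27 of 49 genes (55.1%). The count of 9 rests in part on control replicate 2. Among the other controls, STAT2, IFIT2 and IFIT3 counts lay closer together than among OGTi libraries, whereas those of IRF9, ISG15, MX1 and OAS1 did not. The summed counts of the 9 genes also spread more in controls, at 168, 210.0, 115 and 124 CPM (counts scaled to a common library total) in controls 1 to 4. They were 207, 208, 214 and 208 CPM in OGTi libraries. In this sum the 4 OGTi libraries thus lay close to each other and to the highest control. This did not hold for the 6 genes that were not called. Their summed normalized counts were 1188 to 2516 in controls, highest in replicate 2, and 1316 to 1593 in OGTi libraries.

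The deviations from the group means, on the scale of log2(normalized count + 1), were correlated between the 9 genes. Pearson's r over the 8 libraries was positive in 35 of the 36 gene pairs and had a median of 0.704 and a range from -0.00561 to 0.939. All genes share the same libraries and size factors, and no p is given. The mean deviation of the genes, each scaled to unit SD, was 0.33, 1.64, -1.12 and -0.85 in controls 1 to 4 and between -0.14 and 0.20 in the OGTi libraries. Controls 3 and 4 lay on the low side, control 2 on the high side, and the OGTi libraries near their mean when averaged over the genes. Single genes deviated in both directions there, such as MX1 (0.54) and IFIT2 (-0.28) in OGTi replicate 1.

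**Figure D4:**
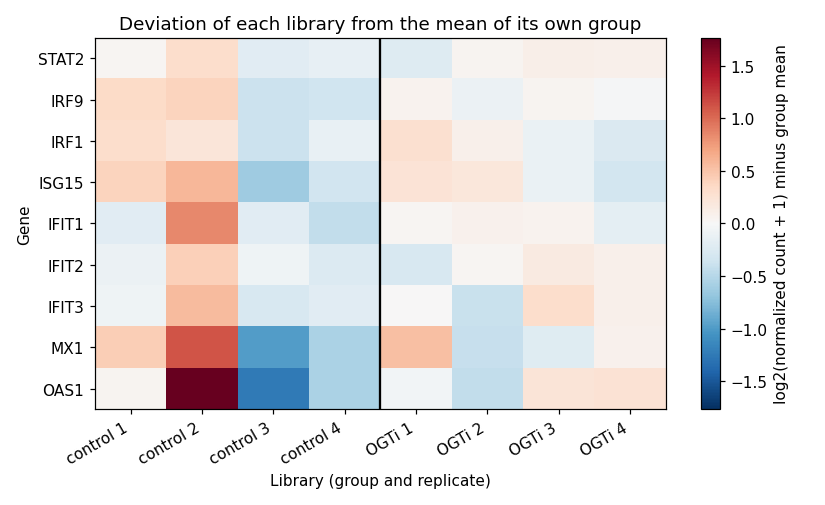
Deviation of each library (columns) from the mean of its own group for the 9 genes (rows), in log2(normalized count + 1), with higher values in red and lower values in blue. Control 2 is red for every gene, up to 1.76 for OAS1, and control 3 is blue for every gene, down to -1.25 for OAS1.

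The 5 genes closest to this shared pattern, among 11693 candidates outside the set whose mean normalized count reached 50, were ABCA7 (a lipid transporter; Pearson's r = 0.977), THBS3 (a thrombospondin; 0.973), KBTBD7 (0.958), MPG (a DNA glycosylase; 0.957) and TXK (a tyrosine kinase; 0.948). None of the 5 belonged to the interferon lists, but some listed genes followed closely. DHX58 (r = 0.936) ranked 10 and MX2 (0.933) ranked 12 of the 11693 candidates, and IFIH1 (0.891), IFITM1 (0.882) and OAS2 (0.880) ranked 29, 34 and 36. Other listed genes did not follow, such as OAS3 (0.109), JAK1 (-0.681) and PTPN1 (-0.861, rank 11636). These listed genes were named after their values were seen. The likeness was measured over 8 libraries and is a description. Of the 5, ABCA7 (log2 fold change 1.78), THBS3 (0.91) and MPG (0.65) were called higher in OGTi cells.

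Within a library, the balance between mRNAs of ISGF3 subunit genes also differed between groups, and the proteins were not measured here. The ratio of STAT2 to IRF9 counts was 2.04, 2.38, 2.85 and 2.92 in controls and 3.42, 4.68, 4.35 and 4.51 in OGTi libraries 1 to 4. The 4 OGTi ratios lay above all control ratios. Between effectors, the ratio of ISG15 to IFIT1 was 0.759 to 1.54 in controls and 1.55 to 2.02 in OGTi libraries, whereas the ratios of IFIT1 and IFIT2 to IFIT3 overlapped. These ratios were chosen after the values were seen and are given without a test.

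Per transcript length, in TPM (counts divided by the length of the canonical transcript and scaled to the same total in every library), IRF9, STAT2 and ISG15 were the most abundant of the 9 in both groups. In controls IRF9 (42.7 ± 12.4 TPM), STAT2 (38.9 ± 6.78) and ISG15 (37.4 ± 14.6) were the highest and overlapped (SD, n = 4). IRF1 (14.9 ± 3.12) and IFIT3 (12.6 ± 3.80) followed and overlapped each other, with all IRF1 values below the lowest ISG15 value of 23.0. MX1 (7.54 ± 4.93), OAS1 (6.20 ± 6.27), IFIT1 (5.48 ± 2.58) and IFIT2 (3.80 ± 0.873) were lowest, in an order that their spread did not resolve.

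In OGTi cells the order changed at the top. ISG15 (61.3 ± 10.03 TPM) and STAT2 (59.4 ± 6.59) overlapped each other and both lay above IRF9 (38.1 ± 2.63), which ranged from 34.2 to 39.8. IRF1 came next, at 26.6 ± 4.02, below all IRF9 values. IFIT3 (14.6 ± 3.07) was separated from the 4 lowest genes, which were MX1 (5.19 ± 1.58), IFIT1 (5.14 ± 0.301), OAS1 (4.57 ± 1.04) and IFIT2 (3.78 ± 0.511). In these bulk samples, a smaller share of responding cells and less mRNA per cell cannot be told apart. Counts of MX1, IRF1, STAT2 and IFIT3 were fractional in 8, 7, 6 and 5 libraries, which means that the authors' counting shared some of their reads with other genes.

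Genes upstream of the set were read from lists written from general knowledge of the pathway. Among interferon genes only IFNE, of 12 listed, could be tested, and the other 11, IFNB1 included, were not analysed here. IFNE had 16.6, 11.3, 9.19 and 7.28 normalized counts in controls and 46.6, 16.1, 22.1 and 21.0 in OGTi libraries. It was higher in 4 of 4 pairs, but the groups overlapped by 1 library and it did not pass the test (log2 fold change 1.21 ± 0.54, q = 0.0528 in DESeq2).

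Of 10 receptor and transducer genes, 3 rose and 2 fell, with a median log2 fold change of 0.06. Over all genes with a q, 22.7% were called higher and 24.0% lower. IFNGR1 rose (0.55 ± 0.10) and IFNGR2 fell (-0.70 ± 0.12), although they encode the chains of a single receptor for interferon gamma. The kinases TYK2 (0.34 ± 0.07) and JAK1 (0.28 ± 0.07) rose. Of the type I receptor chains, IFNAR1 fell (-0.22 ± 0.08, q = 0.0119 in DESeq2), a call that was lost in 9 of the 19 alternatives, and IFNAR2 had a log2 fold change of 0.0001 ± 0.13. Among 10 negative regulators, 2 rose and 1 fell, with a median of 0.04. TRIM27 (0.40 ± 0.08) and SOCS1, an inhibitor of JAK kinases (0.60 ± 0.22), were higher, and the phosphatase gene PTPN11 was lower (-0.44 ± 0.08). SOCS1 lost its call without replicate 2 (0.51, q = 0.143) and without replicate 4 (0.58, q = 0.0830).

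Of 15 genes of nucleic acid sensing, 5 rose and 1 fell (over all genes 22.7% and 24.0%), with a median of 0.24. They included TRIM25, a ubiquitin ligase that activates RIG-I (0.77 ± 0.07), IFI16, a DNA sensor (0.64 ± 0.08), and the kinase TBK1 (0.43 ± 0.11). Of 6 other IRF genes 2 rose, where 22.7% of all genes did. IRF7, itself an interferon response gene, had 393, 488, 238 and 302 normalized counts in controls and 710.1, 644, 573 and 434 in OGTi libraries, with a log2 fold change of 0.76 ± 0.15. IRF3, which TBK1 phosphorylates, had 0.20 ± 0.09 with a q of 0.0495, and lost its call in 14 of the 19 alternatives.

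The wider response held genes that rose and genes that fell. Of 55 tested genes of the type I list, 54 had a q and 16 were called (against 46.6% of all genes), of which 10 rose and 6 fell. The median log2 fold change of this list was 0.02. The 3 with the strongest test were TRIM25, OAS3 (-0.78 ± 0.08) and TRIM14 (-0.62 ± 0.08). OAS3, a relative of OAS1, had 3407, 3769, 3900.3 and 3405 normalized counts in controls and 2108, 1972, 2253 and 2111 in OGTi libraries, with no overlap. Of 20 interferon gamma responsive genes 6 rose and 4 fell (over all genes 22.7% and 24.0%), with a median of 0.11. Among them GBP1, a GTPase, fell (-1.33 ± 0.09), whereas ICAM1, an adhesion molecule (1.13 ± 0.09), and CASP4, an inflammatory caspase (0.69 ± 0.09), rose. Over the 7 pathway lists together, 110 of 127 listed genes were tested and 108 had a q. Of these, 25 were called higher and 14 lower, where the shares over all genes were 22.7% and 24.0%, and the median log2 fold change was 0.04.

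**Figure D5:**
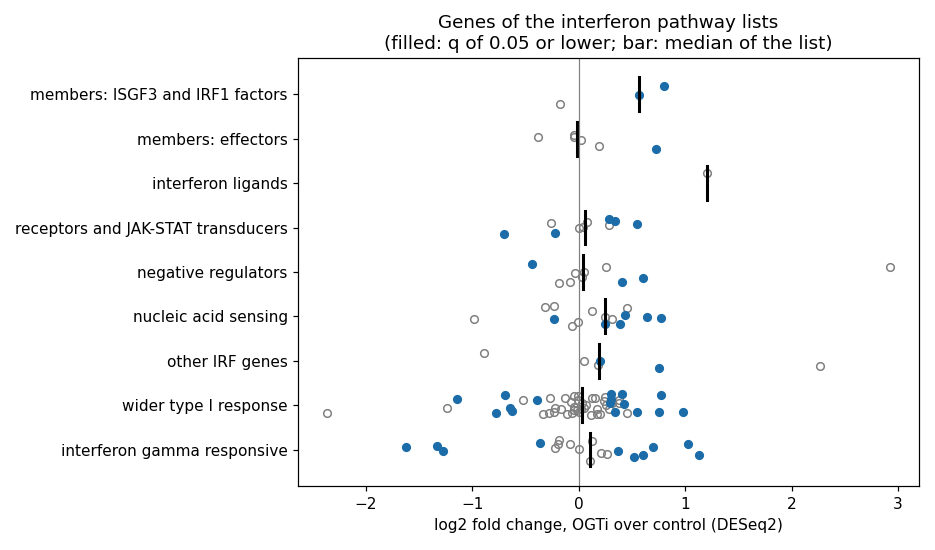
Log2 fold change (OGTi over control, DESeq2; horizontal axis) of each tested gene of the 2 groups of the set and of the 7 pathway lists (rows), with filled points for genes called at a q of 0.05 or lower and a black bar for the median. The medians of the effectors (-0.01) and of the wider type I list (0.02) lie near 0 with called genes on both sides in the latter.

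The libraries held 24166756 to 28201215 counts, and the mRNA of OGT, the inhibited enzyme, was lower in OGTi cells (-0.45 ± 0.09). COL1A1, COL3A1 and VIM were abundant, whereas the stellate cell genes DES and LRAT were at 0 to 5.75 normalized counts. Summed stellate and myofibroblast markers were 189569 to 216932 normalized counts in controls and 146158 to 178377 in OGTi libraries. Of 9 tested, 7 had a q, of which 5 were called lower and TIMP1 higher. Over all genes with a q, 24.0% were called lower and 22.7% higher. Of the leukocyte markers 5 of 8 were tested, and their sum was 2513 to 4093 in controls and 5645 to 9409 in OGTi libraries, nearly all from CD68, while PTPRC, which defines leukocytes, was at 0 to 11.5. Summed endothelial and epithelial markers were 47.7 to 91.1 in controls, highest in replicate 2, and 17.0 to 33.8 in OGTi libraries. Of the hepatocyte markers only SERPINA1 was tested, at 19.5 to 74.0. The part of these marker differences in the levels of the interferon response genes was not tested.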

How the data were processed

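RNA was sequenced from 8 libraries of LX-2 cells (4 control, 4 OGTi) made from polyadenylated RNA with a stranded kit. The authors aligned reads to hg38 with Bowtie2 2.3.5.1 and estimated counts per gene with RSEM 1.3.1, and the deposited files hold expected counts that are not scaled for depth. They were rounded to whole numbers here. The deposited comparison table, made with DESeq2 1.36.0, holds the authors' fold changes and p-values and was not used. Genes with a total of at least 10 counts were tested with DESeq2 1.42.0 (Wald statistic, run in R 4.3.3), with replicate number as a block, as in the study's methods, independent filtering on and no shrinkage. Calls required a Benjamini-Hochberg adjusted p (q) of 0.05 or lower over all genes. The fit was tested on simulated data with the same spread setting for all genes and no replicate effect. That test does not cover genes as variable as OAS1 and MX1.

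The members and gene lists were chosen with earlier results of these data known. All 9 genes were named, with the 3 called genes of largest Wald statistic per list and a few pathway genes fixed by name, and other genes are said to have been chosen afterwards. The control and OGTi libraries of a number came from the same experiment in the study's methods. Their deviations from the group mean correlated with r of 0.379, 0.303, 0.138 and 0.269 over 11702 genes, although control 3 was closer to OGTi 4 (0.272). No pair of libraries agreed within sampling noise (chi-square per degree of freedom 8.38 to 34.7). With 24166756 to 28201215 counts per library, the spread between libraries exceeded counting error, and 4 per group limit the precision. Alternatives were edgeR 4.0.16, no block, TMM factors, other filters, and leaving out each pair or library. Positions came from GENCODE release 44, TPM from its canonical transcript lengths (15800 of 16796 genes), and promoters from RefSeq. One gene of the pathway is not reported here.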

Additional observations from a re-analysis of the deposited data

Results flagged for a closer look

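In 60 groups of 4 libraries, the gap of the highest or lowest library to its nearest neighbour was compared with Dixon's 95% critical value for that number. It was larger in 3 groups, and chance alone flags about 3. IFIT1 in control replicate 2 held 395 normalized counts, where the remaining controls held 162 to 192 (a gap of 0.873 of the range). SOCS1 in control replicate 4 held 79.0, where the remaining controls held 99.98 to 103 (0.864), and JAK1 in OGTi replicate 3 had 7075 against 7399 to 7440 (0.887). For MX1 and OAS1, control replicate 2 was also highest, but the gap did not pass this value because the other controls differed among themselves.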

How the results depend on the processing

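Over 19 alternatives STAT2 (0.46 to 0.67 on the log2 scale) and IRF1 (0.68 to 0.90) kept their call, and IRF9 stayed negative and uncalled (-0.33 to -0.01). The log2 fold change of OAS1 turned negative without the block (-0.49), in edgeR with the block (-0.12) and in edgeR without it (-0.50). The replicate block changed no call among the 9 genes: 3 were called with it and 3 without it, and 6307 genes of all were called without it. Leaving out 1 replicate with the block, OAS1 ranged from -0.51 to 0.69, IFIT1 from -0.14 to 0.21, IFIT2 from -0.15 to 0.089, IFIT3 from -0.015 to 0.50, MX1 from -0.65 to 0.091 and IFNAR2 from -0.059 to 0.072. Leaving out 1 library without the block, OAS1 was 0.48 without control 2 and negative without each of the other controls (-0.60, -0.79 and -0.72 for 1, 3 and 4) and without each OGTi library (-0.46, -0.36, -0.56 and -0.57 for 1 to 4). In the same fits IFIT1 was 0.24 and IFIT2 was 0.11 without control 2, IFIT2 was 0.030 without OGTi 1, MX1 was -0.85 without control 3, and IFNAR2 was -0.071 without OGTi 1 and -0.050 without control 4. Over all fits that leave out a replicate or a library, the number of the 9 genes called was 2 to 4, the number called higher 2 to 4 and their median -0.14 to 0.50. The pathway lists had 31 to 42 calls, 17 to 29 of them higher, and all genes 5127 to 6185. The causes were not tested. At mean counts of 72 to 129, the intervals of OAS1 and IFIT2 leave moderate changes unresolved.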
